A study of Mus musculus with 2 samples.

Results

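Glycosaminoglycan synthesis and sulfation was followed through 36 genes in single cells of the mouse knee joint. The members were all rows of the deposited matrix whose symbol stood on a list of enzymes and transporters for chondroitin, dermatan and heparan sulfate, and all 36 were found among 32285 genes. The joints came from pups at postnatal day 7, of both sexes, either with Col12a1 knocked out (KO) or wild type (WT), with 3 KO and 3 WT libraries over 2 experiments. Col12a1 codes for collagen XII, a collagen that sits on the surface of collagen fibrils. Neither the knockout allele, the strain nor the number of pooled animals is described in the sources used here. The cells of both genotypes were freed by 6 h in collagenase II at 4 mg/mL and read with 10x 3' chemistry, and the cells of KO and WT joints lie in 1 merged matrix. No label ties a cell to a genotype or library, so no KO cell was set against a WT cell, and the members are described across cell classes instead. With 1 merged sample there is no replicate, and no test was made between classes.

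Chondroitin, dermatan and heparan sulfate are glycosaminoglycans, here long sugar chains built on proteoglycan core proteins in the Golgi. Xylose, a pair of galactoses and glucuronic acid form a linker on the core protein, and the next sugar decides whether the chain becomes chondroitin or heparan sulfate. Sulfotransferases then place sulfate at set positions, taking it from the donor PAPS, which the cell makes from imported sulfate. In cartilage, chondroitin sulfate on aggrecan holds water and resists load, and inherited faults of human XYLT1, CHST3, PAPSS2 and SLC26A2 affect skeletal growth. Connective tissue mast cells are known for heparin, a highly sulfated heparan chain made on serglycin.

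After filters, 15171 of 24203 barcodes were kept. The barcode endings split them into set 1, with 7158 cells and a median of 10960.5 unique molecular identifiers (UMIs, 1 per captured transcript), and set 2, with 8013 cells and a median of 9623 UMIs. The 2 endings do not match the number of libraries, so neither the genotypes nor the libraries behind a set are known. The 2 sets shared 40 barcodes apart from the ending, and 14 of these had both copies kept. Clusters were formed without the members and named from marker genes, which gave 17 classes with 70 to 3383 cells and left 498 cells in 2 clusters unnamed. The unnamed clusters had Ppbp, Pf4 and Car1 in one and Dnah12, Wdr95 and Kcnu1 in the other as leading genes. A level (CPM) is the gene's UMIs in every 1000000 UMIs summed over a class. Its 95% interval covers counting error only. Fewer cells of a type within a class and less RNA per cell cannot be told apart in such sums. The chondrocyte-like class held all 10 of its listed markers, summed to 59524 CPM, against 443 in osteoblast-like cells. Erythroid markers, a sign of free RNA, summed to 5874 CPM in chondrocyte-like, 9638 in osteoblast-like, 3864 in synovial lining and 17003 in mast cell-like cells, and their part in the results was not tested. The Spearman correlation of gene span with UMIs over the 36 members was 0.68, so levels were compared between classes for 1 gene and not between genes.

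Every member had at least 100 UMIs in kept cells. Of the 36 members, 9 had their highest level in chondrocyte-like cells and 7 in mast cell-like cells, while synovial lining fibroblast-like (hereafter synovial lining-like) and Schwann-like cells held 5 each. Osteoblast-like, fibroblast-like and macrophage-like cells held 2 each, and 1 each went to the endothelial, neutrophil, erythroid and B cell classes. The share of all genes with their highest level in each class was not computed, so these counts cannot be read against it. They hold for classes and not for single clusters. Without barcode set 1, 4 of the 7 kept their highest level in mast cell-like cells, and Chpf2, Ndst2 and Papss2 did not. For 26 members the counting interval of the ratio to the next class left out 1, and for 22 the same class was highest in both barcode sets. The 10 members without such a gap to the next class were B3gat3, Chpf, Chpf2, Chst14, Ust, Ext2, Extl3, Ndst1, Glce and Slc35b2. Summed over all 36 members, chondrocyte-like cells held 2562 CPM, fibroblast-like cells 1943, osteoblast-like cells 1929, the class named tenocyte-like or ligament fibroblast-like (hereafter tenocyte-like) 1789 and synovial lining-like cells 1643. In mast cell-like cells the sum was 7275 CPM, of which Ext1 alone made up 3514. Linker enzymes summed to 707 CPM in chondrocyte-like cells and to 199 to 370 CPM in the other 4 connective tissue classes, whereas heparan chain enzymes summed to 255 CPM in chondrocyte-like and 684 in fibroblast-like cells. Single genes made up most of these sums, Xylt1 with 628 of the 707 CPM and Ext1 with 598 of the 684 CPM.

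**Figure D1:**
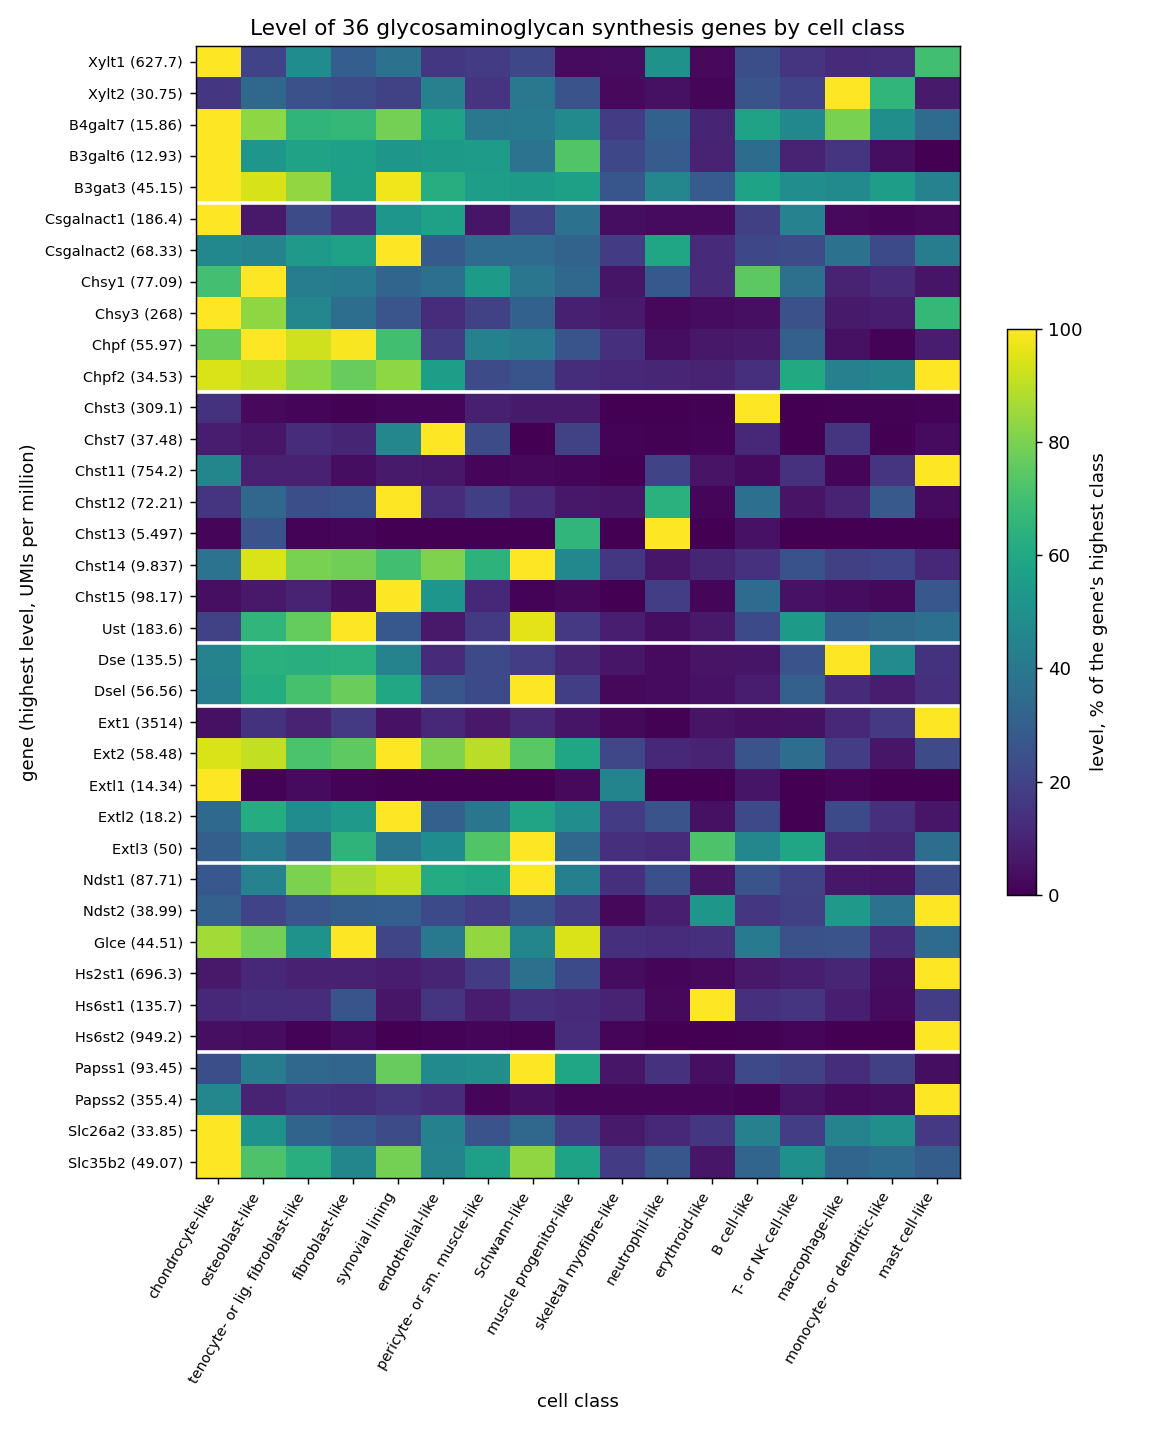
Level of each of the 36 members (rows, with the highest level in CPM in brackets) in 17 cell classes (columns), coloured as a percent of the gene's highest class; white lines part the roles, from linker at the top to sulfate supply at the bottom. The brightest cell lies in the chondrocyte-like column for 9 members and in the mast cell-like column for 7. The share over all genes was not computed.

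Chondrocyte-like cells were set against the other 4 connective tissue classes pooled. A member was called when both sides together held at least 100 UMIs, the ratio of levels was at least 2 either way, its interval left out 1 and both barcode sets pointed the same way. Of 35 members tested, 8 were called higher and 5 lower, beside 9.57% of all 14484 genes tested called higher and 19.6% called lower. The median log2 ratio was 0.02 over the tested members and -0.13 over all genes tested. Chst13, a chondroitin 4-O-sulfotransferase, had too few UMIs.

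Of the 5 linker enzymes, only Xylt1, a xylosyltransferase that starts the chain, was called. Its level was 693 CPM in set 1 and 543 in set 2 of chondrocyte-like cells, against 217 and 193 in the pool, a ratio of 3.06 (95% interval 3.0 to 3.13). The galactosyltransferases B4galt7 and B3galt6 and the glucuronyltransferase B3gat3 were also highest in chondrocyte-like cells, at 15.9, 12.9 and 45.2 CPM, but their ratios to the pool stayed under 2. The other xylosyltransferase, Xylt2, stood at 4.8 CPM.

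Of the 6 enzymes that begin and lengthen chondroitin, Csgalnact1 and Chsy3 were called higher. Csgalnact1, which adds the first N-acetylgalactosamine, had 207 CPM in set 1 and 160 in set 2 of chondrocyte-like cells, against 33.5 and 26.8 in the pool, a ratio of 6.19 (5.91 to 6.48). Chsy3, a chondroitin synthase, had 268 CPM against 118 in the pool, a ratio of 2.27 (2.20 to 2.33). Chsy1, Chpf, Chpf2 and Csgalnact2 lay between 32.0 and 54.1 CPM and were not called.

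Sulfotransferases of chondroitin and dermatan went both ways. Chst3, which sulfates galactosamine at carbon 6, had 35.7 CPM in set 1 and 58.4 in set 2 of chondrocyte-like cells, against 2.60 and 3.68 in the pool, a ratio of 14.5 (12.8 to 16.5). Chst11, which sulfates it at carbon 4, had 314 and 390 CPM in chondrocyte-like cells, against 43.6 and 43.0 in the pool, a ratio of 8.02 (7.73 to 8.32). Both sets thus placed these 2 genes far above the pool. Ust, which sulfates the uronic acid, was 4.47-fold lower (4.19 to 4.78), at 36.2 CPM against 162 in the pool. Chst15, which adds a second sulfate to 4-sulfated galactosamine, was 2.16-fold lower and the dermatan 4-O-sulfotransferase Chst14 was 2.13-fold lower, both at levels under 5 CPM. The pool holds the synovial lining-like cells, the highest class for Chst15, at 98.2 CPM. The dermatan epimerases Dse and Dsel stood at 60.4 and 24.5 CPM and were not called.

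Heparan enzymes split as well. Extl1, an enzyme of the exostosin family known to transfer N-acetylglucosamine to heparan, had 17.7 CPM in set 1 and 9.94 in set 2 of chondrocyte-like cells, against 0.27 and 0.10 in the pool, a ratio of 77.7 (48.5 to 133). Ext1, which with Ext2 forms the heparan polymerase, was 3.16-fold lower, at 165 CPM against 520 in the pool. Ndst1, which removes acetyl groups and adds N-sulfate, was 2.95-fold lower, at 23.8 CPM against 70.2. Ext2 stood at 55.2 CPM and was not called. Glce, Hs2st1, Hs6st1, Hs6st2, Ndst2, Extl2 and Extl3 were not called either.

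In sulfate supply, Papss2, a PAPS synthase, had 144 CPM in set 1 and 190 in set 2 of chondrocyte-like cells, against 47.9 and 42.8 in the pool, a ratio of 3.62 (3.47 to 3.77). Slc26a2, the sulfate importer of the cell membrane, had 27.0 and 42.7 CPM in chondrocyte-like cells, against 10.7 and 10.6 in the pool, a ratio of 3.19 (2.91 to 3.49). Papss1 stood at 22.3 CPM and the Golgi PAPS carrier Slc35b2 at 49.1, and neither was called. With every cell thinned to 2000 UMIs, a Papss2 UMI was found in 26.0% of 1361 chondrocyte-like cells (exact 95% interval 23.7 to 28.4), against 0.40% of 4445 neutrophil-, erythroid- and B-cell-like cells taken as a check on free RNA. Before thinning these shares were 78.4% and 1.98%, at median depths of 14743 and 5472 UMIs.

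**Figure D2:**
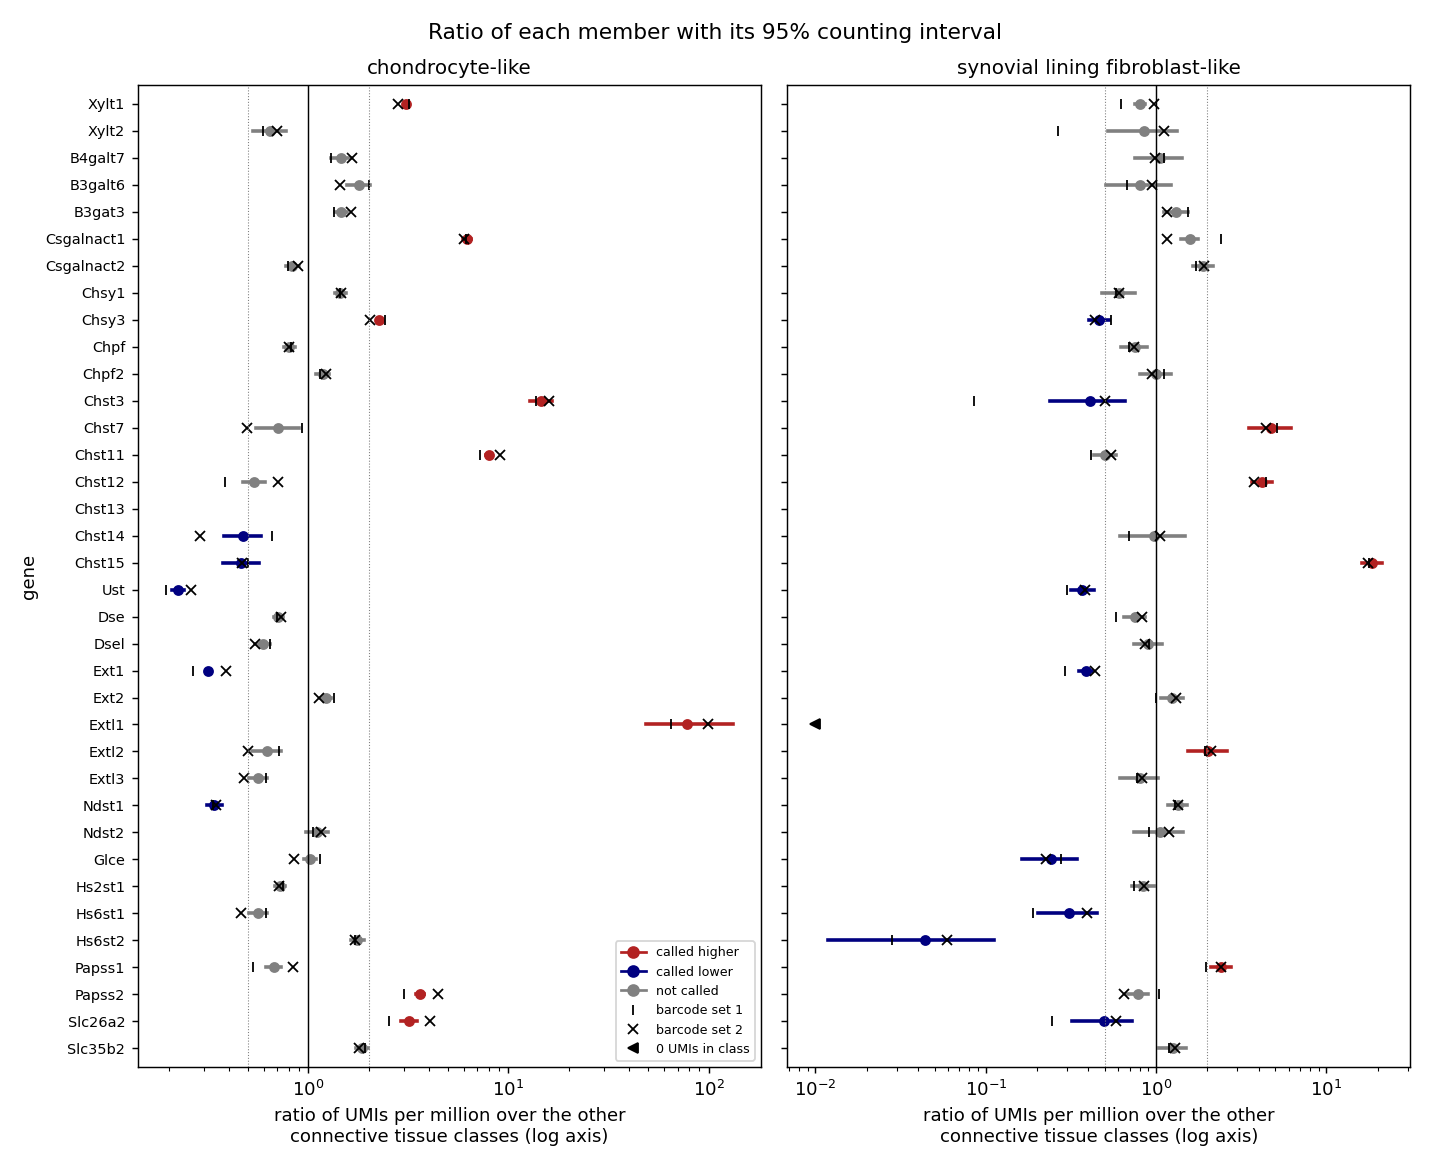
Ratio of each tested member's level in chondrocyte-like (left) and synovial lining-like cells (right) over the other connective tissue classes, on log axes, with 95% counting intervals; ticks and crosses are barcode sets 1 and 2, dotted lines mark ratios of 2 and 0.5, and a triangle marks 0 UMIs. Extl1 at 77.7 and Chst3 at 14.5 lead on the left and Chst15 at 18.6 on the right.

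Other genes of the pathway were read from a list of 76. In chondrocyte-like cells 11 of 68 tested were called higher and 21 lower. Among the genes reported here, the highest ratios were 47.9 for Epyc, a cartilage proteoglycan core, and 22.3 for Acan, the aggrecan core. The lowest were those of Vcan (13.5-fold lower), Col18a1 (9.88-fold lower) and Gpc3 (9.47-fold lower), core proteins of versican, collagen XVIII and a glypican. Among 10 tested chondroitin and dermatan cores 4 were higher and 4 lower, and of 15 lysosomal degradation genes 0 were higher and 3 lower, beside the 9.57% and 19.6% of all genes.

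The start regions of 4 of the 8 members called higher in chondrocyte-like cells are shown, so that their letters can be set side by side. RefSeq windows of 300 bases, 250 before and 50 after the start, on build GRCm38.p6, were matched by symbol for 29 members, 7 of them with 2 windows. Xylt1, Csgalnact1, Chsy3 and Slc26a2 are named only. Windows of Chst3, Chst11, Extl1 and Papss2 follow, in gene sense from 5′ to 3′. Capitals mark the motifs searched on both strands. The SOX family was searched as AACAATG, then in its other form, AACAAAG. The E-box was CACGTG. For GATA factors the search used AGATAA, with the second form TGATAA. The TATA box was TATAAA. The GC box was GGGCGG.
Chst3, chr10:60219211-60219510, minus strand: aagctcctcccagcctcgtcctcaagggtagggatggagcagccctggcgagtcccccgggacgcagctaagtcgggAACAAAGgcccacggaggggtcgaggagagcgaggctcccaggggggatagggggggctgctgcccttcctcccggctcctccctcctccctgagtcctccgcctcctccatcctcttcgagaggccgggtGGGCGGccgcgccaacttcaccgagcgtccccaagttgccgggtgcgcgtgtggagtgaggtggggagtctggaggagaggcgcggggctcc
Chst11, chr10:82985247-82985546, plus strand: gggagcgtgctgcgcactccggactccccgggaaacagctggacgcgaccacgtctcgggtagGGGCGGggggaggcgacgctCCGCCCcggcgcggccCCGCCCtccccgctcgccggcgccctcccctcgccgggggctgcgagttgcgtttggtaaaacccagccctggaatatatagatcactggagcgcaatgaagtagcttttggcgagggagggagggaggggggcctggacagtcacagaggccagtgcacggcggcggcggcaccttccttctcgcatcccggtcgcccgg
Extl1, chr4:134372498-134372797, minus strand: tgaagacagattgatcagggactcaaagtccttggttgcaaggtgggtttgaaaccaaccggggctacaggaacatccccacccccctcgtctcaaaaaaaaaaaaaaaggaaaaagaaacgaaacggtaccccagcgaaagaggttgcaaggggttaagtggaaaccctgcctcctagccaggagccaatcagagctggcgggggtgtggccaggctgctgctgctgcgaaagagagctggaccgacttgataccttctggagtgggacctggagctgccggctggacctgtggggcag
Papss2 first window, chr19:32595465-32595764, plus strand: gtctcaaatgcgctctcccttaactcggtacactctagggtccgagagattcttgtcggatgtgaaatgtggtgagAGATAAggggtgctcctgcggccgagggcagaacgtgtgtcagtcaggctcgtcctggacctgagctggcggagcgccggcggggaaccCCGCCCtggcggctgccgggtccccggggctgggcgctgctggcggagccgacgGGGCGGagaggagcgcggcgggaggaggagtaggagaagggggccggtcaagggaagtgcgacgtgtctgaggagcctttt
Papss2 second window, chr19:32619755-32620054, plus strand: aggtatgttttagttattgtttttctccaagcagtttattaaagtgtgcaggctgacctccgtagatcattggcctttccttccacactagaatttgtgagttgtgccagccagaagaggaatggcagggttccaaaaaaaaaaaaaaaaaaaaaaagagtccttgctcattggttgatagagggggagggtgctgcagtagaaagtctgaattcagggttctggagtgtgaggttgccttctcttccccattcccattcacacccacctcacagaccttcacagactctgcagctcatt

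The Chst3 window held 1 AACAAAG, a motif present in 5.85% of all 32851 windows, and was the only one of 36 member windows with it. AACAATG was in 0 of 36 member windows and in 3.78% of all windows. GGGCGG was in 24 of 36 member windows (66.7%) and in 35.7% of all, and the member windows had a median GC content of 65.7% against 52.7% over all windows. Chst11 held 3 copies of GGGCGG, Chst3 held 1, and the first Papss2 window held 2 with 1 AGATAA, a motif in 11.2% of all windows. The Extl1 window and the second Papss2 window held 0 of the motifs, so no motif searched was shared by all 4 genes. A match is a stretch of letters and not a measured site.

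Leaving out barcode set 1 raised the chondrocyte-like count of lower members to 9, with Chst7, Extl2, Extl3 and Hs6st1 added, while the 8 higher members were called under all 16 alternatives run for this comparison. In 6 of these the class was smaller, with 678 to 724 cells in place of 1367, because 540 to 688 of its cells fell in an unnamed cluster. Chst15 lost its call in 6 alternatives of cell filter, doublet removal or clustering, and Chst14 without set 2.

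The chondrocyte-like class itself fell into 2 clusters under other settings. With another random seed of the clustering, 653 cells were led by Msmp, Cytl1 and Prg4, genes known from superficial and articular cartilage, and 713 cells by Matn1 and Snorc. Under that seed the 713 cells alone kept the chondrocyte-like name, and the 653 cells were left unnamed. The Cytl1-led cells had 7298 CPM of Prg4, the gene of lubricin, against 474 in the Matn1-led cells, and 25365 against 54068 CPM of Col2a1. Of 33 members tested between them, 3 were called higher and 2 lower in Cytl1-led cells, beside 6.32% and 5.09% of 10359 genes. This comparison was chosen after the data were seen.

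Chst3 had 74.9 CPM in Cytl1-led cells against 24.7 in Matn1-led cells, a ratio of 3.04 (2.69 to 3.44), with 55.0 and 100.4 against 21.9 and 28.2 in sets 1 and 2. Hs6st2, a heparan 6-O-sulfotransferase, had 68.9 CPM against 19.8, a ratio of 3.48 (3.04 to 3.98). Ndst1 had 34.1 against 16.4 CPM, a ratio of 2.08 (1.77 to 2.45), a call lost in 6 alternatives. Extl1 was 3.29-fold lower (2.52 to 4.35), at 6.13 CPM in Cytl1-led cells against 20.2 in Matn1-led cells. Hs6st1, the other 6-O-sulfotransferase, was 2.38-fold lower (1.89 to 3.02), at 8.78 against 20.9 CPM, a call lost in 2 alternatives. Csgalnact1 had 257 against 136 CPM and Chst11 266 against 406 CPM, and neither reached a ratio of 2. Of the pathway genes, Sulf2, an extracellular heparan 6-O-sulfatase, was 3.96 times as high in Cytl1-led cells, and Epyc was 16.5-fold lower and Acan 2.53-fold lower. The median depth was 11544 UMIs in Cytl1-led cells and 17181 in Matn1-led cells. With trimmed-mean scaling the median log2 ratio of all genes moved by -0.21 and the share of higher calls among all calls was 38.8% in place of 55.4%.

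Osteoblast-like cells had 1 of 35 members called higher and 4 lower, beside 7.09% and 9.67% of all genes. Chsy1, which lengthens chondroitin, had 72.0 CPM in set 1 and 85.0 in set 2 of osteoblast-like cells, against 35.7 and 38.1 in the other connective tissue classes, a ratio of 2.09 (1.95 to 2.24). With trimmed-mean scaling this ratio was 1.93 and the call was lost. Csgalnact1 was 5.41-fold lower, at 12.8 CPM in osteoblast-like cells against 69.1 in the pool. Extl1 had 2 UMIs (0.16 CPM against 3.54), Xylt1 was 2.49-fold lower and Papss2 2.21-fold lower, the Papss2 call being lost in 3 alternatives. The pool holds the chondrocyte-like cells, the highest connective tissue class for these 4 lower members. Chsy3 stood at 224 CPM, the second highest class after chondrocyte-like cells. Among 68 pathway genes 9 were higher and 12 lower. Ptprz1, the core of phosphacan, had a ratio of 9.89, the N-deacetylase Ndst3 of 9.81 and the heparan 3-O-sulfotransferase Hs3st5 of 6.12, while Epyc was 30.9-fold, Gfpt2, which makes glucosamine phosphate, 10.7-fold and Col18a1 4.24-fold lower.

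In tenocyte-like cells 0 of 35 members were called higher and 3 lower, beside 2.9% and 9.68% of all genes. With a ratio of 1.5 in place of 2 the higher count was also 0, beside 1034 of 14484 genes. Extl1 was 9.28-fold lower and Hs6st2 3.94-fold lower, at 7.68 CPM against 30.2 in the pool, the Hs6st2 call being lost in 4 other clusterings. Chst3 was 2.48-fold lower, at 5.42 CPM against 13.5, but its ratio passed to the other side of 1 in 5 alternatives. The pool holds the chondrocyte-like cells, at 45.6 CPM of Chst3 and 14.3 of Extl1. Fibroblast-like cells, also in the pool, had less Chst3 than tenocyte-like cells. The tenocyte-like class joined an S100a4-led cluster of 674 cells and a Tnmd-led cluster of 480 cells, and the short name covers both. In the S100a4-led cluster 3 class markers passed the naming rule, and the median marker log2 ratio to all other cells was 1.04. For the Tnmd-led cluster these values were 6 and 4.26. The Tnmd-led cells had 314 CPM of Ext1 against 360 in the S100a4-led cells, and 243 against 348 CPM of Xylt1. Without the S100a4-led cluster 5 members were lower, with Chst7 and Extl3 added. Of 68 pathway genes 4 were higher and 14 lower. Chst5, an N-acetylglucosamine 6-O-sulfotransferase of the keratan sulfate list, had 19.3 and 31.7 CPM in sets 1 and 2, against 0.83 in each set of the pool, a ratio of 31.1 (24.7 to 39.5). Col18a1 and Bgn, the biglycan core, had ratios of 2.23 and 2.04, and Hs3st4 (3 UMIs), Esm1 and Hpse were lowest, at 6.46-fold, 5.93-fold and 4.71-fold lower.

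Fibroblast-like cells had 3 of 35 members called higher and 9 lower, beside 8.55% and 12.2% of all genes. Ext1 had 598 CPM in fibroblast-like cells against 293 in the pool, a ratio of 2.04, Ust had 184 against 87.5, a ratio of 2.10, and Hs6st1 had 35.3 against 16.3, a ratio of 2.17. These 3 ratios lay near the limit, and with another clustering seed the count was 0, while without the S100a4-led tenocyte-like cluster it was 5, with Extl3 and Ndst1 added. The lower members were led by Extl1 (47.6-fold), Chst3 (18.0-fold, 1.27 against 22.9 CPM), Chst11 (6.35-fold, 29.2 against 185 CPM) and Csgalnact1 (3.84-fold). Chst15, Slc26a2, Xylt1, Chsy3 and Papss2 followed at 2.07-fold to 2.76-fold lower. Calls were lost in 9 alternatives for Papss2, 7 for Xylt1 and 4 for Chsy3, and Ext1 and Papss2 both lost theirs without set 2. The pool holds the chondrocyte-like cells, so both comparisons share them. It also holds the synovial lining-like cells, at 98.2 CPM of Chst15. With the 4 other classes weighted equally, 5 members were lower, without Xylt1, Chsy3, Papss2 and Slc26a2. Among 4 fibroblast-like clusters, Ext1 had 1056 CPM in the Brinp3-led cluster of 291 cells and 460 to 598 CPM in the other 3. Pathway genes were called higher in 7 of 68 cases and lower in 14. Hpse, the heparanase, had a ratio of 5.60, Gpc3 of 5.34 and Vcan of 4.14, while Acan was 186-fold, Chst5 52.6-fold and Epyc 39.7-fold lower.

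Synovial lining-like cells, 158 in number, had 5 of 35 members called higher and 9 lower, beside 10.2% and 16.2% of all genes. Chst15 had 80.2 CPM in set 1 and 107 in set 2 of these cells, against 4.52 and 6.08 in the other connective tissue classes, a ratio of 18.6 (16.2 to 21.2). Chst12, a chondroitin 4-O-sulfotransferase, had 61.3 and 77.6 CPM against 13.9 and 20.6, a ratio of 4.21 (3.67 to 4.81). Chst7, a 6-O-sulfotransferase like Chst3, had 18.0 and 16.9 CPM against 3.51 and 3.85, a ratio of 4.71 (3.52 to 6.20). Papss1 was 2.40 times as high, at 71.6 CPM against 29.8, and Extl2, which can end a chain at the linker, 2.02 times as high, a call lost in 8 alternatives. In both sets all 5 lay above the pool.

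Chst15 overlaps Fgfr2 on the same strand, so reads of the 2 genes could be mixed in counting. Fgfr2 had 131 CPM in synovial lining-like cells, against 216 in chondrocyte-like and 296 in osteoblast-like cells, which had 4.07 and 6.70 CPM of Chst15. Whether reads of the 2 genes were mixed was not tested. With cells thinned to 2000 UMIs a Chst15 UMI was found in 22.8% of 158 synovial lining-like cells (16.5 to 30.1), against 1.10% of chondrocyte-like cells and 0.18% of 1650 erythroid-like cells. Unthinned, the shares were 61.4%, 6.51% and 1.06%, at median depths of 19314, 14743 and 5106 UMIs. Endothelial-like cells were the next highest class, with 51.6 CPM of Chst15. Neutrophil-, erythroid- and B-cell-like cells together, the check on free RNA used for Papss2, had 16.3 CPM, above chondrocyte-like cells.

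Of the 11 heparan members, 5 were called lower and Extl2 higher in synovial lining-like cells. Ext2 and Ndst1 stood at 58.5 and 80.0 CPM, against 47.0 and 59.8 in the pool, and were not called. Hs6st2 was 22.9-fold lower (8.93 to 84.0, 4 UMIs), the epimerase Glce 4.17-fold, Hs6st1 3.26-fold and Ext1 2.59-fold lower, at 174 CPM against 452 in the pool. Extl1 had 0 UMIs, which puts it at least 3.66-fold lower when 3 counts over the class are taken as the floor. Ust was 2.71-fold and Chsy3 2.16-fold lower. Chst3 (17 UMIs) and Slc26a2 (26 UMIs) were called lower at 2.44-fold and 2.03-fold. The pool holds the chondrocyte-like cells, the highest connective tissue class for Extl1, Chsy3, Chst3 and Slc26a2. The Slc26a2 call was lost in 8 alternatives, and Chst3 passed to the other side of 1 in 2. Keeping only cells with at least 1000 genes and 2000 UMIs left 4 of the 9 lower members, without Chsy3, Ust, Ext1, Hs6st1 and Slc26a2. The class then held 236 cells, 51 of them muscle progenitor-like before, so its make-up changed with the filter. With trimmed-mean scaling the median log2 ratio of all genes moved by -0.17 and 27.8% of calls were higher, in place of 38.7%. Pathway genes were higher in 13 of 68 cases and lower in 14. Chst2, an N-acetylglucosamine 6-O-sulfotransferase, had 269 CPM against 19.6, a ratio of 13.7 (12.6 to 14.8). Srgn, the serglycin core, had a ratio of 7.25 and Ugp2, which makes UDP-glucose, of 4.61. Hs3st1 and Esm1 had 0 UMIs and Gpc3 was 29.4-fold lower. Of 15 lysosomal degradation genes 6 were higher and 0 lower, beside the 10.2% and 16.2% of all genes.

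All 5 connective tissue classes together were set against 7 blood classes. Of 36 members 19 were called higher and 2 lower, beside 31.4% and 20.6% of 15958 genes. The median log2 ratio was 1.08 over the members and 0.29 over all genes, and trimmed-mean scaling moved the value over all genes by -0.16. Of the 6 chondroitin chain enzymes 5 were higher, led by Chpf, a chondroitin polymerising factor, with 51.9 CPM in connective tissue cells against 2.97 in blood cells, a ratio of 17.5 (14.96 to 20.5), and Chsy3 with a ratio of 10.6. Both dermatan epimerases were higher, Dsel by 10.3 and Dse by 2.39. Extl1, Chst14, Csgalnact1, Papss2, Ext2, Ust, Glce, Ndst1, Chpf2, B3galt6, Extl2, Papss1, Slc35b2, Chst7 and Chsy1 made up the rest, with ratios of 2.04 to 17.7. The calls of Chst7 and Chsy1 were lost in 5 alternatives each. Chst3 was 3.38-fold lower, at 12.2 CPM against 41.1, and Chst13 10.9-fold lower, at 0.20 against 2.20 CPM, a call lost when either set was left out for Chst13. Among blood classes Chst3 was highest in B cell-like cells, at 309 CPM. Neutrophil-like and erythroid-like cells lay below the connective tissue level of Chst3. Pathway genes were higher in 40 of 70 cases and lower in 8, with Epyc (77.1), Esm1 (51.8) and Acan (39.5) at the top and Srgn (72.5-fold), Gpc5 (23.0-fold) and Hs3st1 (5.94-fold) lowest.

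Mast cell-like cells, 124 in number, were set against the other blood classes pooled. No other blood class was compared in this way. Of 34 members tested 11 were called higher and 5 lower, beside 10.9% and 22.3% of 12422 genes. All 6 mast cell markers were present, summed to 57806 CPM. Hs6st2 had 1046 CPM in set 1 and 768 in set 2 of mast cell-like cells, against 2.18 and 2.26 in the other blood classes, a ratio of 428 (354 to 523). Ext1 had 3704 and 3157 CPM in mast cell-like cells, against 165 and 181, a ratio of 20.4 (19.6 to 21.2). Hs2st1, the heparan 2-O-sulfotransferase, had 759 and 579 CPM against 28.8 and 35.0, a ratio of 22.0 (20.1 to 24.2). In both sets these 3 heparan genes lay far above the pool. Ndst2, the N-deacetylase known for heparin in mast cells, had 39.0 CPM against 11.5, a ratio of 3.40 (2.34 to 4.77), with 49.6 in set 1 and 19.2 in set 2. Ndst1 and Glce, at 21.2 and 15.6 CPM, were not called, nor was Ext2, at 13.4 CPM.

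Chondroitin genes were among the calls too. Chst11 had 701 CPM in set 1 and 854 in set 2 of mast cell-like cells, against 85.4 and 76.4 in the other blood classes, a ratio of 9.26 (8.53 to 10.0). Chsy3 had a ratio of 15.6, Chpf2 of 5.17, Xylt1 of 2.58, Ust of 2.55 and Chst15, a call lost in 4 alternatives, of 2.04. Papss2 had 446 and 186 CPM in mast cell-like cells against 6.71 and 6.12, a ratio of 55.1 (47.2 to 64.3), so the sets differed but both lay above the pool. The lower members, Chst3, Chst12, Chsy1, Papss1 and Xylt2, each had 2 to 4 UMIs in the class. The pool holds the B cell-like cells, at 309 CPM of Chst3. Xylt2 lost its call when either set was left out, and Papss1 without set 2. B3galt6, the second galactosyltransferase of the linker, had 0 UMIs, at a floor of 3.34 CPM.

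**Figure D3:**
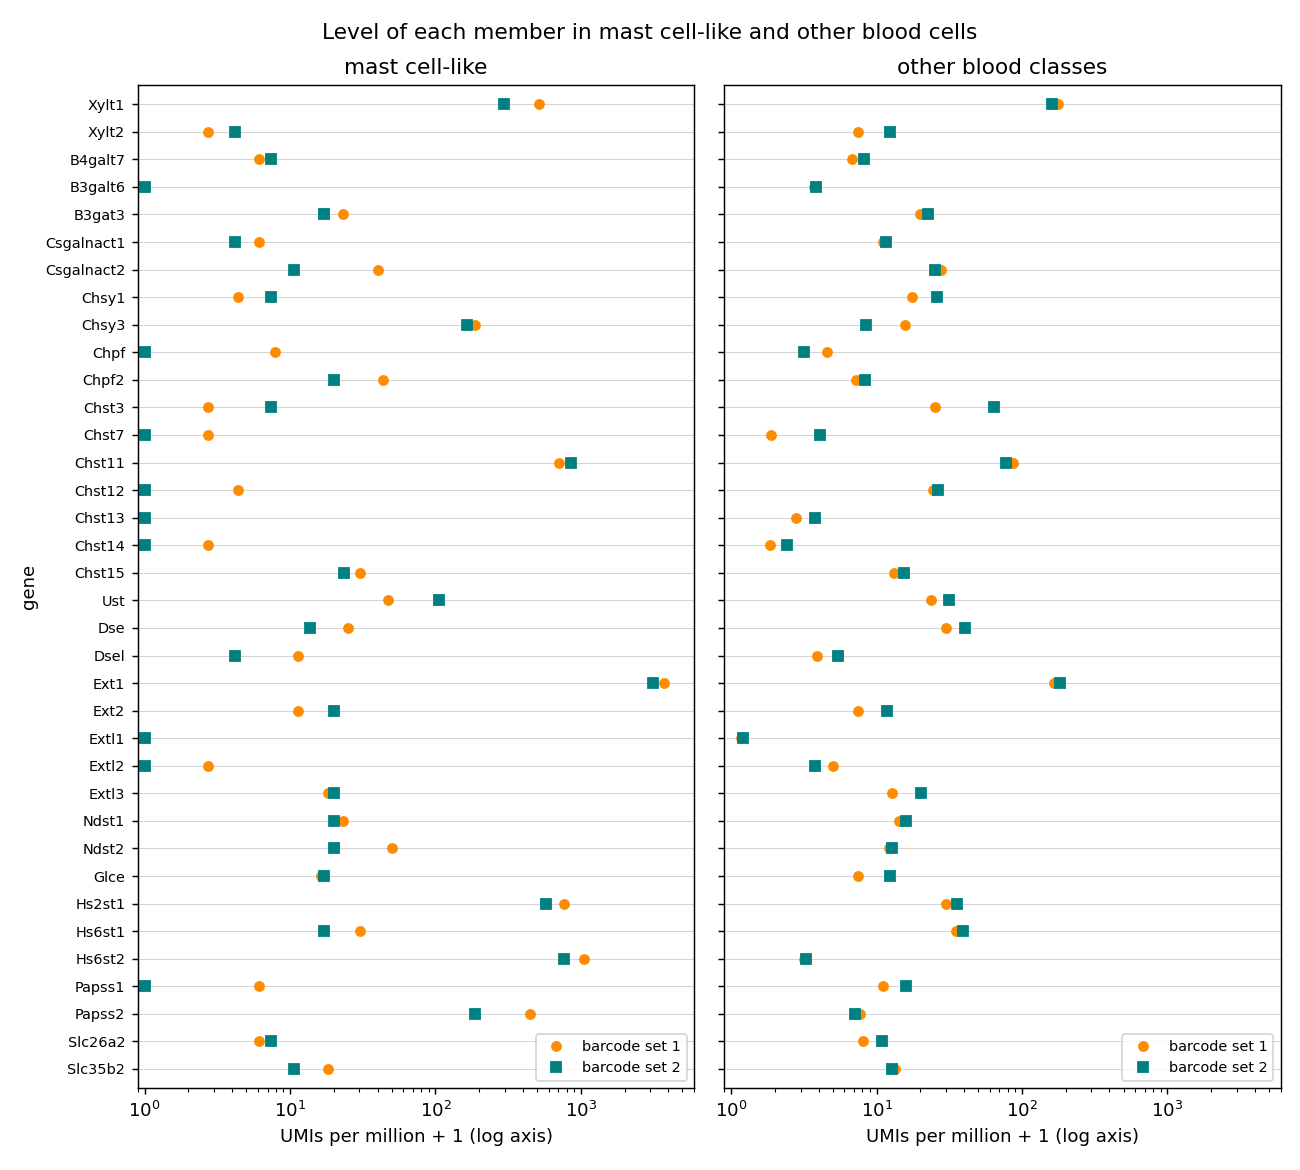
Level of each of the 36 members in mast cell-like cells (left) and in the other 6 blood classes pooled (right), as CPM plus 1 on log axes, with 1 point per barcode set. Ext1, Hs6st2, Chst11 and Hs2st1 reach the highest levels on the left, and Hs6st2 lies near 2 CPM on the right.

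The class was shallow, with a median of 4611 UMIs, and 2 cells of set 1 held chondrocyte markers at 69533 CPM, against 83.1 in the other 122. Without these 2 cells 11 members were higher and 6 lower, beside 1341 and 2788 of 12419 genes. Csgalnact1 and Dse were added to the lower members and Xylt2 was lost. Without set 1, 7 were higher, and Xylt1, Chpf2, Chst15 and Ndst2 were not. Hs2st1 overlaps Gm43707 and Gm43560 on the same strand, which had 18.9 and 14.5 CPM in mast cell-like cells. With cells thinned to 2000 UMIs an Hs6st2 UMI was found in 70.5% of mast cell-like cells (60.8 to 79.0), against 0.34% of the neutrophil-, erythroid- and B-cell-like cells, with 19 mast cell-like cells too shallow to thin. Unthinned, the shares were 83.9% and 0.857%. Of 54 pathway genes tested 14 were higher and 9 lower. Gpc5, a glypican core, had a ratio of 3889 (2604 to 6089), Hs3st1, which adds the 3-O-sulfate of antithrombin-binding heparin, of 1254 (1015 to 1567), and Slc35d1, a nucleotide sugar carrier of the endoplasmic reticulum, of 63.8. Srgn stood at 6070 CPM against 1318. Pxylp1, Hpse and Hyal2 had 0 UMIs.

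The 2 RefSeq windows of Hs6st2 are shown because this gene had the highest ratio of any member. The first window held 1 GGGCGG and the second 1 TATAAA, a motif in 13.6% of all windows and in 1 of 36 member windows.
Hs6st2 first window, chrX:51680428-51680727, minus strand: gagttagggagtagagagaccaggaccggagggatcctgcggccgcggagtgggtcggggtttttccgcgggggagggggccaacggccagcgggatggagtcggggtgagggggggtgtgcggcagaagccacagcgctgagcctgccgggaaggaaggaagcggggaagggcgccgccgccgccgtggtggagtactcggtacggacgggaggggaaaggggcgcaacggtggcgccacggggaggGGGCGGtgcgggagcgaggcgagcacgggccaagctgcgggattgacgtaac
Hs6st2 second window, chrX:51681553-51681852, minus strand: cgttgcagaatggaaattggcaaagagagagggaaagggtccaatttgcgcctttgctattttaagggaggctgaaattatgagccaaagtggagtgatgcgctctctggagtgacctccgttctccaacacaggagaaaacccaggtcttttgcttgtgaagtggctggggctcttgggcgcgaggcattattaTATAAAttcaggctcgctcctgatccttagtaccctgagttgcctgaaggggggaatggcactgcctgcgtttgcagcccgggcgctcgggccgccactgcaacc

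Some other blood and stromal classes held the highest level of a member. Chst3 had 236 CPM in set 1 and 361 in set 2 of B cell-like cells, against 35.7 and 58.4 in chondrocyte-like cells, the next class. It stood at 440 CPM in the B cell-like cluster led by Igkc and Ighm and at 191 in the one led by Vpreb1 and Igll1, and at 0.504 and 1.58 in neutrophil-like and erythroid-like cells. Thinned to 2000 UMIs, 47.7% of 856 B cell-like cells held a Chst3 UMI. Hs6st1 had 136 CPM in erythroid-like cells, 3.84 times the next class, and reached 248 CPM in the cluster led by Sptb, Hemgn and Mki67. Xylt1 reached 738 CPM in the neutrophil-like cluster led by Asprv1 and 504 in that led by Slc2a3 and Mmp8, against 62.1 in the cluster led by Elane. Chst11 had 356, 157 and 78.7 CPM in the same 3 clusters. By class Chst13 was highest in neutrophil-like cells, at 5.50 CPM, and it reached 11.6 CPM in the Myog-led muscle progenitor-like cluster. Chst7 had 37.5 CPM in endothelial-like cells, Dse 135 and Xylt2 30.8 in macrophage-like cells. Schwann-like cells held the highest levels of Papss1 (93.5 CPM), Ndst1 (87.7), Dsel (56.6), Extl3 (55.5 in set 1 and 46.4 in set 2) and Chst14 (9.84), with Dsel and Papss1 alone set off from the next class. Muscle progenitor-like cells, led by Pax7 in 1 cluster, had 122 CPM of Hs6st2, second to mast cell-like cells. Glce was at 44.5 CPM in fibroblast-like and 41.9 in muscle progenitor-like cells, within counting error of each other. Csgalnact2 was highest in synovial lining-like cells, at 68.3 CPM.

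Pairs of enzymes with the same step were read as shares of their joint UMIs, which does not depend on the scaling of a class. Papss2 made up 88.0% of Papss1 and Papss2 UMIs in chondrocyte-like cells (87.1 to 88.9) and 99.1% in mast cell-like cells, against 60.2% in fibroblast-like, 46.0% in osteoblast-like, 43.5% in synovial lining-like and 8.05% in muscle progenitor-like cells. Csgalnact1 made up 85.4% of both Csgalnact genes in chondrocyte-like and 84.7% in endothelial-like cells, against 29.4% in osteoblast-like and 11.7% in neutrophil-like cells. Among the 4-O-sulfotransferases Chst11, Chst12 and Chst13, Chst11 held 96.9% in chondrocyte-like and 99.7% in mast cell-like cells, against 43.2% in synovial lining-like cells. Chst3 held 93.7% of Chst3 and Chst7 UMIs in chondrocyte-like cells, against 22.7% in synovial lining-like and 13.3% in endothelial-like cells. Hs6st2 held 97.5% of both Hs6st genes in mast cell-like cells, 87.8% in muscle progenitor-like and 71.7% in chondrocyte-like cells, against 1.9% in erythroid-like cells. Ndst1 held 66.6% of both Ndst genes in chondrocyte-like and 35.2% in mast cell-like cells, against 83.2% to 87.3% in the other 4 connective tissue classes. Dse held 64.0% to 71.2% of both epimerases across the 5 connective tissue classes. These genes differ in length, so a share is compared between classes and does not give the ratio of 2 transcripts in a cell.

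**Figure D4:**
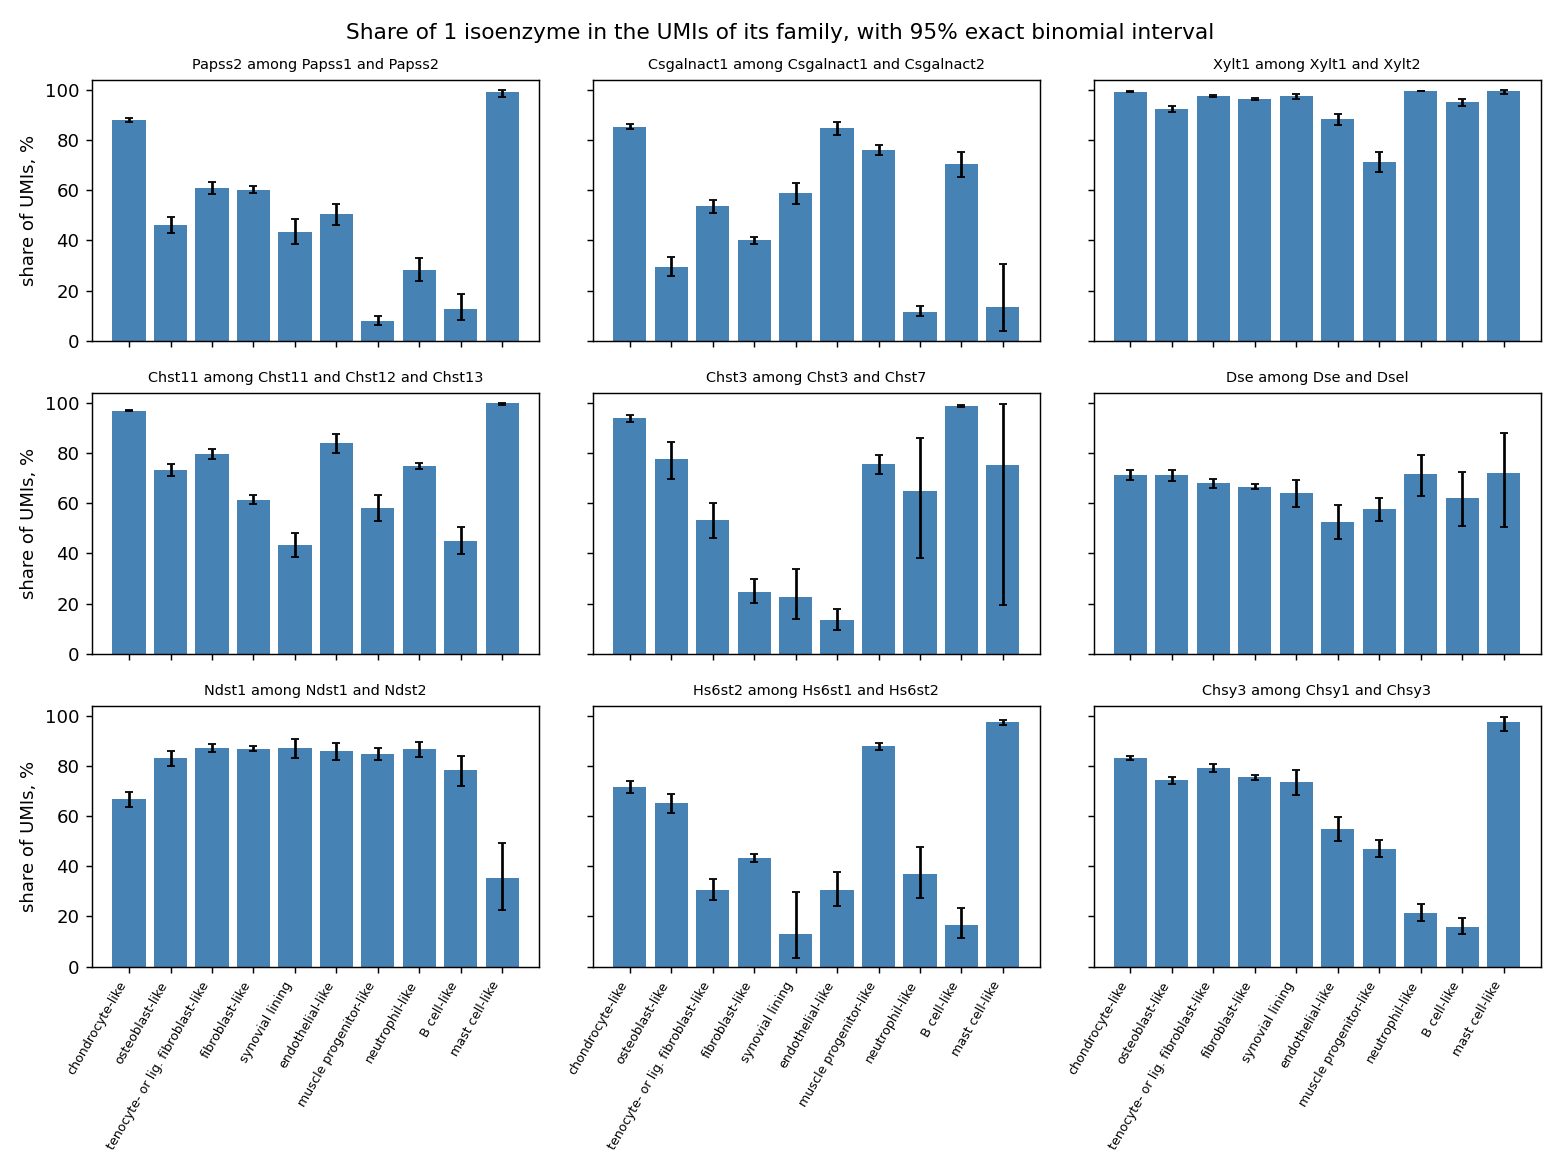
Share of the joint UMIs of an enzyme family held by 1 of its genes (vertical axis, percent) in 10 cell classes, with exact 95% binomial intervals that cover counting error. The mast cell-like bar is the tallest and the chondrocyte-like bar the second for Papss2, Chst11 and Chsy3, while Dse stays between 52.5% and 72.0%.

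Barcode set 2 was set against set 1 within each connective tissue class, with neither set tied to a genotype. In chondrocyte-like cells 2 of 33 members tested, Chst12 and Papss1, were at least 2 times as high in set 2 and 0 were lower. Chst12 had 16.9 CPM in set 2 against 6.61 in set 1 and Papss1 31.3 against 15.3. All genes were called higher in 2.34% and lower in 3.57%. In osteoblast-like cells 0 of 31 were higher and Hs6st2 was lower, at 16.1 CPM in set 2 against 44.1 in set 1, beside 1.36% and 1.67%. In tenocyte-like cells 0 of 33 were called in either direction, beside 1.39% and 1.8%, and in fibroblast-like cells 0 of 33, beside 1.05% and 1.34%. In synovial lining-like cells 0 of 19 were higher and Csgalnact1 was lower, at 59.8 CPM in set 2 against 175 in set 1, beside 2.86% and 1.14%. These are differences between pools of cells with counting intervals only.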

How the data were processed

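Single cells of P7 mouse knee joints were read with 10x 3' v3 chemistry. Per the labels' protocols, the authors aligned reads and merged 2 experiments with Cell Ranger 7.0.0, and per the submitters' processing notes the build was mm10. The deposited values are whole-number UMI counts for each gene and barcode, with 0 columns left unused. The sources used here do not state how intron reads were treated.

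Barcodes were dropped below 500 detected genes or 1000 UMIs, or above 10% of UMIs from mitochondrial genes. Scrublet called only 3 cells as doublets, so that caller did not work and doublets were in effect not removed. Cells were clustered with scanpy 1.11.5 and leidenalg 0.10.2 (2000 variable genes, 30 components, 15 neighbours, resolution 1), with 232 genes left out (members, pathway genes, and mitochondrial, ribosomal and sex-linked genes). This gave 35 clusters, of which all but 2 were named from markers. Counts were summed by class, with exact Poisson and conditional binomial intervals (scipy 1.17.1) at 95%. Depth by class ran from a median of 3358 to 19313.5 UMIs per cell, and intervals cover counting error only. As cells of 1 merged matrix are not replicates, no p-value was computed. For thinned shares each cell was cut to 2000 UMIs, and a count of 0 was read against a floor of 3 counts over the class.

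The comparison of summed counts was first tested on simulated data with known folds. The members and lists were chosen with earlier results of these data known. The text names every member called in a comparison, the 3 pathway genes with the highest and lowest ratios among those called, and others by role. A pathway gene that this rule names is not reported here. IDs were matched to GENCODE M21 for 36 of 36 members, and start windows came from RefSeq. Alternatives changed filters, clustering, scaling, thresholds and pools. The comparison of KO with WT was not made, since cells carry no genotype.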

Additional observations from a re-analysis of the deposited data

How the results depend on the processing

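Over 17 alternatives, 57 of 89 called member ratios kept their call under every one run. Among these alternatives, a ratio of 1.5 and no minimum of UMIs could not lose a call, and equal weighting used no counting interval. Without barcode set 1, 9 members were lower in chondrocyte-like cells, 1 in connective tissue cells, and 7 were higher in mast cell-like cells, where 4 kept their highest level, without Chpf2, Ndst2 and Papss2. Over all genes the same calls were 2470 of 12794, 3046 of 14296 and 1088 of 10721. Without barcode set 2, 3 were lower in mast cell-like cells, beside 2027 of 10909 genes. With a ratio of 1.5, 11 members were lower in chondrocyte-like cells, 3 higher and 9 lower in osteoblast-like cells, 10 lower in tenocyte-like cells, 5 higher and 4 lower in Cytl1-led cells, and 5 higher in fibroblast-like cells. At that ratio, lower calls over all 14484 genes tested numbered 4275 for the chondrocyte-like, 2166 for the osteoblast-like and 2103 for the tenocyte-like class. Higher calls over the same genes numbered 2115 for the osteoblast-like and 2064 for the fibroblast-like class. Between Cytl1-led and Matn1-led cells, 2015 of 10359 genes were then called higher and 869 lower. Trimmed-mean scaling left 0 higher in osteoblast-like cells, and no minimum of UMIs gave 2, beside 829 of 14484 and 1853 of 25766 genes. At resolution 2 and with another seed, 1 member each was lower in tenocyte-like cells, and 1 and 0 were higher in fibroblast-like cells. Over all 14205 and 14292 genes tested there, 1222 and 1139 were lower in tenocyte-like cells, and 1150 and 1112 higher in fibroblast-like cells. Cells with at least 1000 genes and 2000 UMIs left 4 lower in synovial lining-like cells, a class then of 236 cells in place of 158, and 1 in Cytl1-led cells, and a limit of 5% mitochondrial UMIs left 1 in Cytl1-led cells. Over all genes these lower calls were 1486 of 14453, 473 of 10268 and 452 of 10308. With each cell weighted equally, 4 were lower in connective tissue cells and 10 in mast cell-like cells, beside 3582 of 15958 and 4305 of 12422 genes.

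Some alternatives were chosen after seeing the data. Without the S100a4-led cluster, 5 members were lower in tenocyte-like and 5 higher in fibroblast-like cells, beside 1853 and 1369 of 14264 genes. With the other classes weighted equally, 5 were lower in fibroblast-like cells, beside 1755 of 14484 genes. Between the barcode sets, a ratio of 1.5 gave 8, 3 and 4 members in chondrocyte-like, osteoblast-like and synovial lining-like cells, and no minimum of UMIs gave 3 in each of the last 2 classes. The share over all genes was not computed for these counts between sets, so they cannot be read against it.

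The Chst3 ratio of tenocyte-like cells was 1.337 with at most 5% mitochondrial UMIs, 1.157 at resolution 2, 1.06 with another seed, 1.126 with list genes used in clustering and 1.014 with the top 6% of doublet scores removed. In synovial lining-like cells it was 1.071 with doublet calls kept and 1.11 with list genes used. In each of these settings 540 to 688 cells of the chondrocyte-like class were left unnamed, and so were not in the pool. The cause of these reversals was not tested. No paired analysis was possible because the cells lie in 1 merged matrix with no replicate numbers. Calls on a few UMIs are limited by depth, most of all in mast cell-like cells.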
